A study of Mus musculus with 110 samples.

Results

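The 34 genes described here mark macrophages: resident and recruited macrophages of fat, and Kupffer cells, the macrophages of the liver. They were chosen by name and by function, with earlier results of these data known, and all 34 were found by symbol among the 56884 gene rows of the count tables. The data are polyA RNA-seq counts from liver, interscapular brown (iBAT), inguinal white (iWAT) and epididymal white (eWAT) adipose tissue of 28 mice, 110 libraries in all, of which 105 entered the fits after the exclusions that the study made. Every mouse was a single-housed male C57BL/6N, 16 weeks old at the end, on a diet free of cysteine. The control diet (Ctrl) held 0.86% methionine by the sample labels and the restricted diet (MetR) held 0.12%. Mice were fed for 7 days at room temperature, 22 °C (RT), or kept for an additional day with a cold exposure (CE) of 24 h at 4 °C, which gave 4 groups: Ctrl_RT, Ctrl_CE, MetR_RT and MetR_CE. Each group had 7 libraries per tissue in the fits, except for 6 in Ctrl_RT and Ctrl_CE of iBAT, 6 in MetR_CE of iWAT, and 4 in Ctrl_RT and 6 in MetR_RT of eWAT.

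Macrophages live in every tissue and are kept alive by the receptor CSF1R, while the transcription factor PU.1, encoded by Spi1, holds them in the myeloid lineage. Kupffer cells sit in the liver sinusoids, where they take up particles and complement-coated material from the blood with receptors that other macrophages make little of, such as CLEC4F and VSIG4. In fat, resident macrophages rich in the mannose receptor CD206 line the vessels. Lipid-associated macrophages, which carry the lipid receptor TREM2, take up lipid near stressed fat cells.

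The genes fall into 7 groups by role. The 9 core macrophage genes are Adgre1 (F4/80), Cd68, Csf1r, Spi1, Mpeg1, Ms4a7, Lyz2, Ctss and Aif1. The complement C1q chains are encoded by C1qa, C1qb and C1qc. Fcgr1, Fcgr3, Fcgr4 and Clec4n (Dectin-2) encode receptors and are grouped with the signalling adaptor genes Tyrobp and Fcer1g. Ptprc (CD45), Itgam (CD11b) and Cd14 are surface genes shared with other leukocytes. The Kupffer cell genes are Clec4f, Vsig4, Timd4, Cd5l and Marco, the lipid-associated genes are Trem2, Gpnmb, Spp1, Lgals3 and Itgax, and the resident fat macrophage genes are Mrc1 (CD206), Cd163 and Folr2. All 34 passed the filter on low counts in liver, iWAT and eWAT, and 33 passed in iBAT, where Clec4f was not tested.

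Because many of these genes are targets of PU.1, their promoters were searched for the core of its binding site, the PU-box. RefSeq gave a window of 250 bases before the start site (GRCm38.p6) for 27 of the 34 genes. The letters GAGGAA, or TTCCTC on the other strand, stood in a window of 16 of these genes (59.3%), against 6986 of the 27025 genes in the same table (25.9%). Counted by window, the shares were 53.1% of 32 windows and 23.3% of 32851. The 6 windows below are of genes that hold the motif and also carry changes described later. Genes without the motif in a window, such as Mpeg1, Lyz2, Ms4a7, Folr2, Timd4 and Clec4f, are not shown. They are printed 5′ to 3′ with the motif in capitals:
Fcgr1, chr3:96293970-96294219, minus strand: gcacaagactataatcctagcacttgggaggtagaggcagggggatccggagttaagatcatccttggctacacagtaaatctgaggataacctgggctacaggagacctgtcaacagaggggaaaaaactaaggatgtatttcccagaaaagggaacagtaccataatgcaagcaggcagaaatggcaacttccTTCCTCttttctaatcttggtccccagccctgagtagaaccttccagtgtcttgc
Ctss, chr3:95526536-95526785, plus strand: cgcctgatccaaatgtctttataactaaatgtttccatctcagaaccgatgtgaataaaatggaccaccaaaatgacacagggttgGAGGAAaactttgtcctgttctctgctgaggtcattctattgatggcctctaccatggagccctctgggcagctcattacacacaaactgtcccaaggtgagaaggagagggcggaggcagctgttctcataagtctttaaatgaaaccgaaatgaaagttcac
Cd5l, chr3:87357631-87357880, plus strand: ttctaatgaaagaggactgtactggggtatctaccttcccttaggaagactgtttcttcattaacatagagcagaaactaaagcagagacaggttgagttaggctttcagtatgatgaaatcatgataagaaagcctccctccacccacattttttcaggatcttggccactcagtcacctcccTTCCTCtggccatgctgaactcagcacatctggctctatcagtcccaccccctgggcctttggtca
Marco, chr1:120505025-120505274, minus strand: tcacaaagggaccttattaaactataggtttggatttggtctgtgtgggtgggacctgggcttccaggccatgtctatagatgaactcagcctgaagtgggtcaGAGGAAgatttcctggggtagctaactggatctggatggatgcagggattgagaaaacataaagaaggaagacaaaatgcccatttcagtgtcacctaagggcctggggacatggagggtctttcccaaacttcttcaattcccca
Vsig4, chrX:96293439-96293688, minus strand: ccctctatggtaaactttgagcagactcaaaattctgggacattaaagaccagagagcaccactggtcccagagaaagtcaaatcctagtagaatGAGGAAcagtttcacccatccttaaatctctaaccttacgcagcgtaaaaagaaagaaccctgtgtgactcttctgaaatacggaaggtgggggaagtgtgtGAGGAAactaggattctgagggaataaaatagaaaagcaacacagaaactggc
Trem2, chr17:48346151-48346400, plus strand: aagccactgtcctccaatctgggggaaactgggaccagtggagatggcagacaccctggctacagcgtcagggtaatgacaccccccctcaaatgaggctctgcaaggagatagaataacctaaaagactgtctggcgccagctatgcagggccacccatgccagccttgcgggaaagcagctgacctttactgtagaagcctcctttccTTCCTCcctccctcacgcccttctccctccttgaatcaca
A match is a description of letters and not evidence of binding. The motif began 55 bases before the start of Fcgr1, 164 before Ctss, 66 before Cd5l, 146 before Marco and 40 before Trem2, while Vsig4 held it 155 and 53 bases before the start.

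The libraries held 6987895 to 33444374 counts in liver, 12672686 to 31232349 in iBAT, 16607493 to 33141066 in iWAT and 22021114 to 33372110 in eWAT. Hepatocyte markers summed to at least 43783 CPM (a count scaled to library size) in each liver library and to at most 185 in the fat libraries of the fits, and adipocyte markers to at least 10106 CPM in fat and at most 46 in liver. Several libraries stood apart in the genes described here. In liver, Ctrl_CE replicates 2 and 4 had summed CPM of all 34 genes of 2108 and 2010, and the other 5 livers of the group ran from 566 to 1205. Calls in Ctrl_CE of liver are given with and without these livers, which the study kept. Replicate 4 of Ctrl_CE also had a neutrophil marker sum of 76.8 CPM in its liver, 42.2 in its iBAT, 62.8 in its iWAT and 82.2 in its eWAT, each the highest of its group. In iWAT, 4 libraries held over 4000 CPM of skeletal muscle genes. In 3 iBAT libraries the treatment tag differed from the title, and they were grouped by title.

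In the Ctrl_RT group, most of the macrophage genes were much more abundant in iWAT than in the other fat depots, and the Kupffer cell genes were highest in liver. To compare genes with each other, the Ctrl_RT level was divided by exon length and is given as CPM per kb. In iWAT, Lyz2 (lysozyme) led with 506 ± 86.2 CPM per kb (SD, n = 7), followed by C1qa at 243.7 ± 69.1 and C1qb at 208 ± 55.8, which overlapped within their spread. Lyz2 also led in eWAT at 144 ± 40.9 CPM per kb (n = 4) and in iBAT at 31.9 ± 6.16 (n = 6), again ahead of C1qa at 66.7 ± 11 and 14.8 ± 3.72. In liver the top places belonged to Spp1 (osteopontin) at 62.4 ± 78.7, Clec4f at 58.3 ± 7.56, Cd5l at 56.1 ± 7.41, C1qa at 52.2 ± 6.35 and C1qb at 49.7 ± 7.19 CPM per kb (n = 7), and these 5 did not differ beyond their spread. Spp1 owed its mean to 1 liver, since its median was 33.6 and its highest value 240 CPM per kb. At the foot of the order stood Gpnmb in liver with 0.0497 ± 0.0314 CPM per kb, and Clec4f in the fat depots, with 0 counts in the 7 Ctrl_RT libraries of iWAT.

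**Figure D1:**
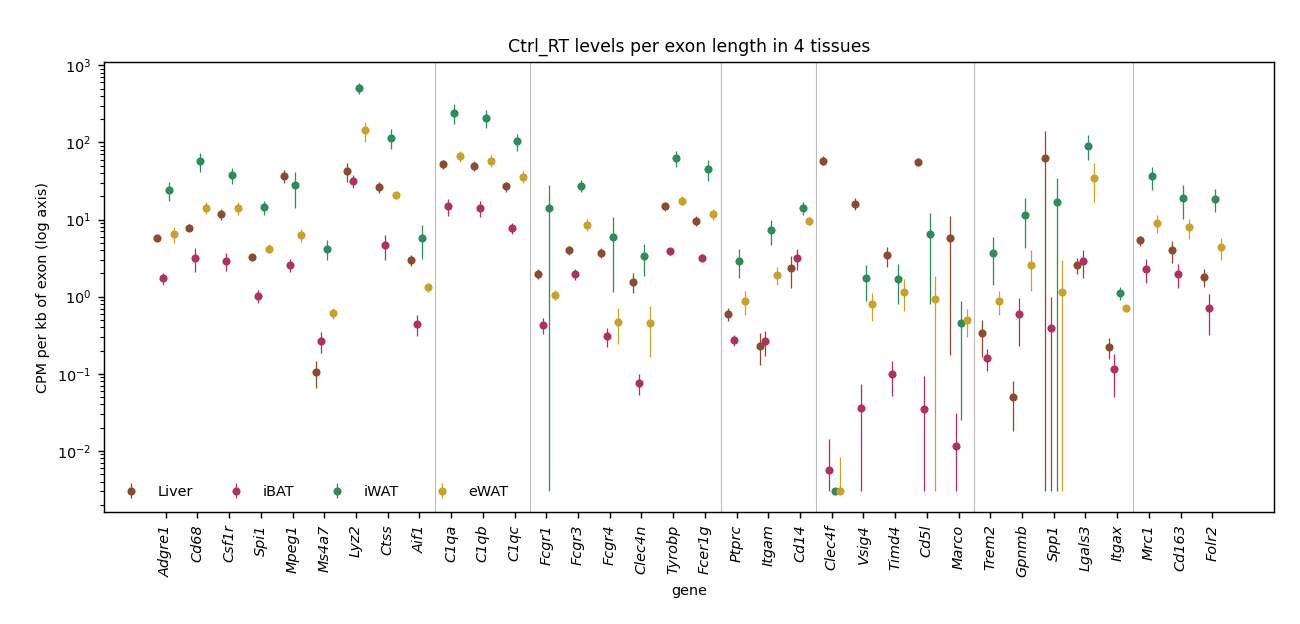
Level of each of the 34 genes in the Ctrl_RT group of the 4 tissues, as CPM per kb of exon on a log axis, with points for the mean and bars for the SD (n = 7 liver, 6 iBAT, 7 iWAT, 4 eWAT). Zeros and error bars that reach below the axis are cut at its foot; Clec4f, Cd5l and Vsig4 lie high in liver, and most other genes lie highest in iWAT.

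Between tissues, the Ctrl_RT levels were tested in 1 model over all libraries. Counts of liver, of iBAT with iWAT, and of eWAT were deposited as separate sets. Where tissues of different sets are compared, tissue and set of libraries cannot be told apart. A gene counted as called where edgeR's quasi-likelihood test gave an adjusted p (Benjamini-Hochberg) below 0.05 and the level differed by 1.5-fold or more in either direction. Against the mean of the 3 fat depots, liver had 10 of the 34 genes higher and 13 lower, while 19.4% of all tested genes were called higher and 24.9% lower. The genes higher in liver included all 5 Kupffer cell genes. Cd5l, a protein that macrophages secrete into the blood, had a log2 difference of 6.52 (SE 0.41, adjusted p = 1.4e-26), and the complement receptor gene Vsig4 one of 5.41 (SE 0.28, adjusted p = 1.2e-32). Marco, a scavenger receptor, was higher by 5.28 (SE 0.55, adjusted p = 1.1e-14) and Timd4, a receptor for phosphatidylserine on dying cells, by 2.54 (SE 0.27, adjusted p = 3e-14). Clec4f, the remaining one, was at or near 0 in fat, so no fold is given. Spp1, Mpeg1, Fcgr4, Clec4n and Aif1 made up the other 5. Of these, Fcgr4, Clec4n and Aif1 averaged more in iWAT than in liver, at 5.90, 3.38 and 5.81 against 3.72, 1.57 and 2.99 CPM per kb. Their levels in iBAT and eWAT, which enter the mean of the depots, were lower than in liver. Gpnmb, a lysosomal glycoprotein of lipid-laden macrophages, was the most depleted in liver with a log2 difference of −5.73 (SE 0.62, adjusted p = 5e-14).

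iWAT exceeded eWAT in 29 of the 34 genes in the same model and was lower in 0, against 7.87% of all tested genes called higher. The largest differences were in Spp1 (log2 3.83, SE 0.82, adjusted p = 0.00014), Fcgr1 (log2 3.74, SE 0.44, adjusted p = 7.7e-11) and Fcgr4 (log2 3.61, SE 0.48, adjusted p = 2.9e-09). Cd14, Clec4f, Itgax, Marco and Timd4 were not called. This comparison rests on 4 eWAT libraries after the exclusions. Aif1 showed how much this can matter. It was at 2.16 to 3.07 CPM in the 4 eWAT libraries kept and at 2.84, 23.7 and 43.8 CPM in the 3 left out, and its log2 difference of 2.13 became −0.02 with all libraries. iBAT was lower than iWAT in each of the 33 genes called, with 19.4% of all tested genes called lower. The differences ran from a log2 of −7.40 for Cd5l (SE 0.81, adjusted p = 1.7e-13) to −2.14 for Cd14 (SE 0.32, adjusted p = 8.2e-09). In bulk tissue, fewer macrophages and less RNA per macrophage cannot be told apart, here or in the comparisons that follow.

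In iWAT, macrophage genes fell under cold, under methionine restriction and most often when both were combined. Against Ctrl_RT, 24 of 34 genes were lower and 1 higher in Ctrl_CE, 29 were lower and 0 higher in MetR_RT, and 32 were lower and 1 higher in MetR_CE. Of all genes tested in iWAT, 9.94%, 7.36% and 14.4% were called lower, and 5.99%, 4.25% and 8.05% higher. The median log2 fold change of the 34 genes was −1.15, −1.63 and −2.57, beside −0.11, −0.03 and −0.08 over all genes. The 3 comparisons share the Ctrl_RT libraries. Summed over the 34 genes, the level was 3479 ± 621 CPM in Ctrl_RT, 1641 ± 880 in Ctrl_CE, 1271 ± 670 in MetR_RT, against 683 ± 196 in MetR_CE.

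All 9 core genes and all 3 C1q genes were lower in each of the 3 treated groups of iWAT. Adgre1, which encodes the F4/80 antigen, had a lowest, median and highest value of 67, 80.4 and 128 CPM in Ctrl_RT, 13.8, 28 and 71.1 in Ctrl_CE, 12.5, 22.8 and 48 in MetR_RT, whereas MetR_CE had 6.92, 9.89 and 20.5. The Ctrl_RT libraries lay above every MetR_RT and MetR_CE library and overlapped the highest of the Ctrl_CE libraries. Its log2 fold changes were −1.33 (SE 0.32, adjusted p = 0.00225), −1.76 (SE 0.33, adjusted p = 0.000326) and −2.99 (SE 0.36, adjusted p = 5.9e-07). Lyz2, the most abundant of the set, ran from 631 to 943 CPM (median 730) in Ctrl_RT, 106 to 682 (median 283.7) in Ctrl_CE, 92.9 to 403 (median 181) in MetR_RT and 69.3 to 180 (median 97.4) in MetR_CE. The order of its groups was that of Adgre1, with overlap between Ctrl_RT and Ctrl_CE and none between Ctrl_RT and either MetR group. Ctss, encoding the lysosomal protease cathepsin S, had medians of 160, 55.7, 34.2 and 18.3 CPM and fell by 1.44, 2.05 and 3.25 on the log2 scale (SE 0.39, 0.40 and 0.44). Mpeg1, a pore-forming protein of the phagosome, fell by 1.38, 2.02 and 2.93 (SE 0.34, 0.35 and 0.39). Ms4a7, a membrane protein of tissue macrophages, fell by 1.22, 1.88 and 3.24 (SE 0.39, 0.40 and 0.45). C1qa, the first chain of the complement starter C1q, fell by 1.14, 1.33 and 2.60.

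In the Fc receptor group of iWAT, 5, 6 and 6 of the 6 genes were lower in Ctrl_CE, MetR_RT and MetR_CE. Fcgr1, the high-affinity IgG receptor, was at 14.8 to 138 CPM (median 32.3) in Ctrl_RT, 2.32 to 14.9 (median 5.84) in Ctrl_CE, 2.40 to 11.3 (median 4.46) in MetR_RT and 1.13 to 4.12 (median 1.63) in MetR_CE. Ctrl_RT and Ctrl_CE met at their edges and the MetR libraries all lay below Ctrl_RT. The log2 fold changes of Fcgr1 were −2.63 (SE 0.48, adjusted p = 0.000156), −2.92 (SE 0.49, adjusted p = 0.000144) and −4.47 (SE 0.57, adjusted p = 8.95e-07). Without Ctrl_RT replicate 7, the highest library, they were −1.95, −2.23 and −3.79 and the calls held. Fcgr4, an activating IgG receptor of myeloid cells, ran from 3.17 to 22.5 CPM (median 5.18) in Ctrl_RT and from 0.161 to 0.970 (median 0.511) in MetR_CE, with log2 fold changes of −2.06 (SE 0.41), −2.57 (SE 0.42) and −3.89 (SE 0.48). Clec4n, which binds fungal sugars, was not called in Ctrl_CE (log2 −0.96, adjusted p = 0.119) and fell by 2.03 (SE 0.48) and 3.55 (SE 0.56) in MetR_RT and MetR_CE. The leukocyte surface genes Ptprc, Itgam and Cd14 were all lower in all 3 comparisons, among them the integrin gene Itgam by 1.42, 1.79 and 2.82 on the log2 scale (SE 0.34, 0.35 and 0.38).

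**Figure D2:**
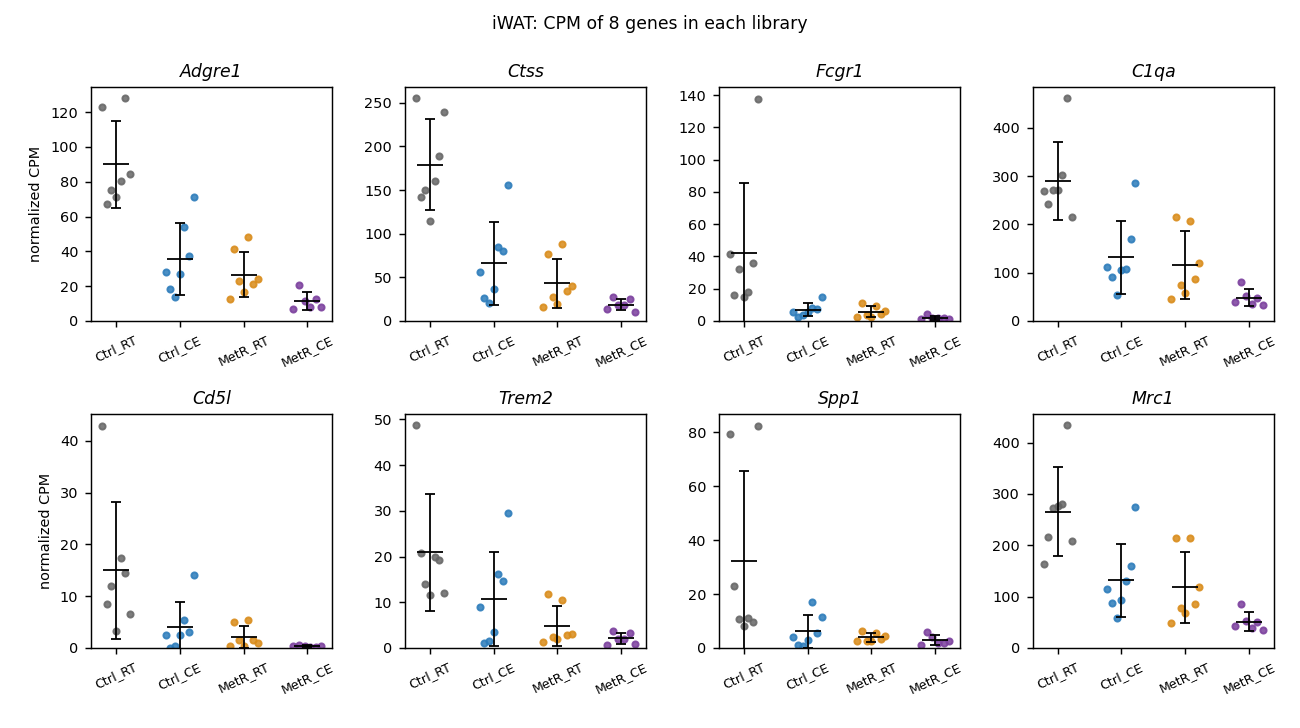
Values of selected genes in each iWAT library as CPM, by group (Ctrl_RT, Ctrl_CE, MetR_RT with n = 7 and MetR_CE with n = 6), with a bar for the mean and an error bar for the SD whose lower end is cut at 0. Adgre1 fell from a Ctrl_RT median of 80.4 to 9.89 CPM in MetR_CE, and its Ctrl_CE libraries spread from 13.8 to 71.1 CPM.

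Of the 5 lipid-associated genes of iWAT, 1 was called lower in Ctrl_CE, and 5 in MetR_RT and in MetR_CE. All 5 had a negative log2 fold change in Ctrl_CE too, and the difference between the treatments was not tested. The lipid receptor gene Trem2 was at 11.6 to 48.7 CPM (median 19.3) in Ctrl_RT and averaged 10.7 in Ctrl_CE, 4.79 in MetR_RT and 2.09 ± 1.26 in MetR_CE. It was not called in Ctrl_CE (log2 −0.95) and fell by 2.12 (SE 0.60, adjusted p = 0.0104) in MetR_RT and 3.31 (SE 0.67, adjusted p = 0.000281) in MetR_CE. Spp1, a secreted matrix protein, was the exception that fell in all 3, by 2.37 (SE 0.60, adjusted p = 0.00343), 3.04 (SE 0.62, adjusted p = 0.000764) and 3.48 (SE 0.67, adjusted p = 0.000164), from Ctrl_RT values of 8.31 to 82.5 CPM with a median of 11. Lgals3, the galectin-3 gene, had log2 fold changes of −0.39, −0.93 (SE 0.25, adjusted p = 0.00806) and −1.04 (SE 0.27, adjusted p = 0.00274). Itgax, encoding CD11c, had −0.27, −1.15 (SE 0.36, adjusted p = 0.0207) and −1.45 (SE 0.38, adjusted p = 0.0032). Gpnmb had −0.40, −1.15 (SE 0.42, adjusted p = 0.0455) and −1.22 (SE 0.44, adjusted p = 0.0286). Its calls ended without Ctrl_RT replicate 1, at −0.77 and −0.84. The Itgax call in MetR_RT ended without MetR_RT replicate 4, at −1.04 (adjusted p = 0.051).

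Of the 3 resident fat macrophage genes of iWAT, 2 were called lower in Ctrl_CE, 1 in MetR_RT and 3 in MetR_CE. Mrc1, the CD206 gene, ran from 164 to 435 CPM (median 272.7) in Ctrl_RT, 58.8 to 275.1 (median 116) in Ctrl_CE, 48.2 to 215 (median 85.2) in MetR_RT and 34.4 to 85.7 (median 46.8) in MetR_CE. Its MetR_CE libraries alone were clear of Ctrl_RT. It fell by 1.01 (SE 0.32, adjusted p = 0.0183), 1.17 (SE 0.32, adjusted p = 0.0095) and 2.38 (SE 0.36, adjusted p = 7.67e-06), and its call in Ctrl_CE ended without Ctrl_RT replicate 6 (log2 −0.85, adjusted p = 0.054). Cd163, a receptor for haemoglobin bound to haptoglobin, averaged 120, 71.1, 78.2 and 42.8 CPM in the order Ctrl_RT, Ctrl_CE, MetR_RT and MetR_CE, and was called in Ctrl_CE (log2 −0.76, adjusted p = 0.0486) and MetR_CE (log2 −1.49, SE 0.31, adjusted p = 0.000382). The Ctrl_CE call lay at the threshold, and ended in several fits that left out 1 library, with −0.52 without Ctrl_RT replicate 6. Folr2, a folate receptor, averaged 33.2, 16.3, 15.7 and 5.75 CPM and was called in MetR_CE (log2 −2.54, SE 0.47, adjusted p = 9.36e-05), with −1.02 and −1.08 in the other two comparisons. In the core group, the call of Csf1r in Ctrl_CE (log2 −0.82, adjusted p = 0.0333) also ended when 1 library was left out, Ctrl_RT replicate 6 or Ctrl_CE replicate 1, 2, 3 or 4, at −0.70 to −0.77.

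The Kupffer cell genes were sparse in iWAT, where resident macrophages other than Kupffer cells can also make them. Cd5l ran from 3.30 to 42.9 CPM (median 12) in Ctrl_RT, 0.0644 to 14.1 (median 2.55) in Ctrl_CE and 0.177 to 0.608 (median 0.298) in MetR_CE, and averaged 2.14 ± 2.12 in MetR_RT. All MetR_CE libraries were below all Ctrl_RT libraries. It fell by 1.88 (SE 0.66, adjusted p = 0.0313), 2.80 (SE 0.69, adjusted p = 0.0039) and 5.57 (SE 0.89, adjusted p = 1.67e-05). The call in Ctrl_CE ended without Ctrl_RT replicate 1 (log2 −1.35, adjusted p = 0.12), and also without Ctrl_CE replicate 1, 2, 3, 4 or 6, and the value was −2.65 without Ctrl_CE replicate 7. Vsig4 averaged 2.95 ± 1.45, 1.76, 0.919 and 0.740 CPM and was called in MetR_RT (log2 −1.69, SE 0.41, adjusted p = 0.00331) and MetR_CE (log2 −2.0, SE 0.43, adjusted p = 0.000581). Marco averaged 0.998 CPM in Ctrl_RT and 0.376 in MetR_CE, its only call in iWAT (log2 −1.37, SE 0.50, adjusted p = 0.0299), which ended without Ctrl_RT replicate 1 (log2 −0.76, adjusted p = 0.18). Timd4 was not called, with log2 fold changes of −0.54, −0.51 and −0.80. Clec4f, the only member called higher, rested on 0 counts in all Ctrl_RT libraries together against 5 in Ctrl_CE, 3 in MetR_RT, against 11 in MetR_CE. With 3 counts as the floor for the Ctrl_RT group, the pooled counts put it 2.12-fold higher in Ctrl_CE and 4.0-fold higher in MetR_CE. No fold is given for MetR_RT. The few counts of the treated groups are taken as exact, so these values are not strict lower bounds. Its call in Ctrl_CE ended without Ctrl_CE replicate 4.

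Marker lists of other cell types moved alongside in iWAT. Of 8 monocyte genes, 5, 6 and 7 were lower in Ctrl_CE, MetR_RT and MetR_CE and 0 were higher. Ly6c2, the Ly6C antigen of classical monocytes, fell by 3.77 (SE 0.74), 4.31 (SE 0.76) and 4.61 (SE 0.82), and Chil3 by 2.80 (SE 0.70), 4.48 (SE 0.78) and 4.8 (SE 0.84). Another 8 resident fat macrophage genes had 5, 5 and 7 lower, among them Pf4 by 1.03, 1.35 and 1.91. Among the 8 genes for CSF1R ligands and macrophage transcription factors, 4, 5 and 6 were lower, including Csf1, the growth factor for macrophages, by 0.76 in Ctrl_CE (SE 0.20, adjusted p = 0.0046) and Spic by 1.75 in MetR_CE (SE 0.36). The other 8 lipid-associated genes had 1, 4 and 4 lower and 1 higher each time. Atp6v0d2, a subunit of the lysosomal proton pump, fell by 2.15 (SE 0.58) in MetR_RT and 2.64 (SE 0.62) in MetR_CE, while Fabp5, a fatty acid binding protein also made by fat cells, rose by 1.33 in Ctrl_CE (SE 0.24, adjusted p = 0.00017). Of 6 proliferation genes, 0, 1 and 6 were lower, with Mki67 down by 2.37 in MetR_CE (SE 0.50).

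Neutrophil genes were lower in 2, 5 and 5 of 8 cases in iWAT. Dendritic cell genes were lower in 0, 0 and 4 of 7, B cell genes in 0, 0 and 2 of 8, and T and NK cell genes in 0, 0 and 2 of 8. The fibroblast list had 2, 2 and 3 of 6 genes lower, and its summed level was 3267 to 10645 CPM in Ctrl_RT, 749 to 5136 in Ctrl_CE, 934 to 3342 in MetR_RT, against 676 to 1200 in MetR_CE. Col1a1, a collagen chain, fell by 1.98 (SE 0.48), 2.46 (SE 0.49) and 4.16 (SE 0.56). The summed adipocyte level was 14155 to 18877, 14495 to 22430, 15133 to 22589 and 20706 to 22921 CPM, and the endothelial sum averaged 637, 702, 789 and 870 CPM. The part of these other cell types in the macrophage gene results was not tested. Without the 4 libraries high in muscle genes, 24, 29 and 32 members were called lower or higher, against 25, 29 and 33 with them.

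In liver, the genes that passed the test were mostly higher under cold on the control diet and mostly lower under methionine restriction. In Ctrl_CE, 18 of 34 genes were higher and 1 lower, beside 7.28% and 4.64% of all genes tested in liver. In MetR_RT, 0 were higher and 13 lower, beside 2.88% and 4.02%. In MetR_CE, 1 was higher and 9 lower, beside 6.25% and 7.22%. The median log2 fold change of the 34 genes was 0.61, −0.70 and −0.55, beside −0.01, 0.00 and −0.04 over all genes. Much of the rise in Ctrl_CE lay in 2 livers. They stood out by the summed level of these same genes, so a smaller rise without them follows from that choice. The study kept both livers in its fits. Without Ctrl_CE replicates 2 and 4, 4 genes remained called higher, Mrc1, Cd163, Adgre1 and Csf1r, and Spp1 remained called lower. The share of all genes called in that smaller fit was not counted.

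Of the 5 Kupffer cell genes in liver, 4 were higher in Ctrl_CE with all livers and 0 without the 2. Marco showed this most plainly, with 3.58, 223, 7.59, 249.5, 51.3, 7.58 and 8.36 CPM in Ctrl_CE replicates 1 to 7 and 3.33 to 27.3 CPM (median 4.68) in Ctrl_RT. The high values belonged to replicates 2, 4 and 5, and the other 4 lay within the Ctrl_RT range. Its log2 fold change was 3.15 (SE 0.73, adjusted p = 0.00131) and fell to 0.81 (adjusted p = 0.287) without replicates 2 and 4. It was 2.53 without replicate 4 alone and 3.74 without Ctrl_RT replicate 6. Timd4 ran from 3.81 to 9.11 CPM (median 5.46) in Ctrl_RT and 5.02 to 23.8 (median 10.6) in Ctrl_CE, a log2 fold change of 1.11 (SE 0.25, adjusted p = 0.00103) that became 0.56 (adjusted p = 0.0288), short of the fold threshold. Vsig4 ran from 13.7 to 21.9 (median 20.6) and 16.7 to 48.9 CPM (median 33.9), 0.75 (SE 0.18, adjusted p = 0.00237) with and 0.54 (adjusted p = 0.0267) without the 2 livers. Cd5l ran from 78.3 to 113 (median 93.8) and 61.8 to 310 CPM (median 129), 0.75 (SE 0.22, adjusted p = 0.00936) with and 0.27 (adjusted p = 0.245) without, and its call ended without replicate 2 alone (log2 0.49, adjusted p = 0.051). Clec4f, a lectin that in the mouse is nearly restricted to Kupffer cells, was at 97.3 to 136 CPM (median 115) and 92 to 205 (median 160) and was not called, at 0.40 (SE 0.13, adjusted p = 0.0214).

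Under methionine restriction at room temperature, 3 of the 5 Kupffer cell genes of liver were lower and 0 higher. Clec4f ran from 51.1 to 95 CPM (median 76.1) in MetR_RT, below all Ctrl_RT livers, with a log2 fold change of −0.63 (SE 0.13, adjusted p = 0.000907). The call ended without MetR_RT replicate 4 (log2 −0.56) or 7 (log2 −0.58), since the value lies near the fold threshold. Cd5l ran from 32.8 to 67.4 CPM (median 49.8), again below Ctrl_RT in all livers, at −0.82 (SE 0.22, adjusted p = 0.00773). Vsig4 ran from 5.81 to 14.7 CPM (median 13.1) at −0.72 (SE 0.19, adjusted p = 0.00762). Timd4 (log2 −0.73, adjusted p = 0.053) and Marco (log2 −1.36, adjusted p = 0.269) were not called. In MetR_CE only Cd5l was called among the 5, at −0.59 (SE 0.22, adjusted p = 0.0415) with 51 to 67.1 CPM, and the call ended in most fits that left out 1 library. When the 2 Ctrl_CE livers were left out of the fit, 20 genes in place of 13 were called in MetR_RT, and the cause was not tested. The share of all genes called in MetR_RT was not counted for that fit.

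**Figure D3:**
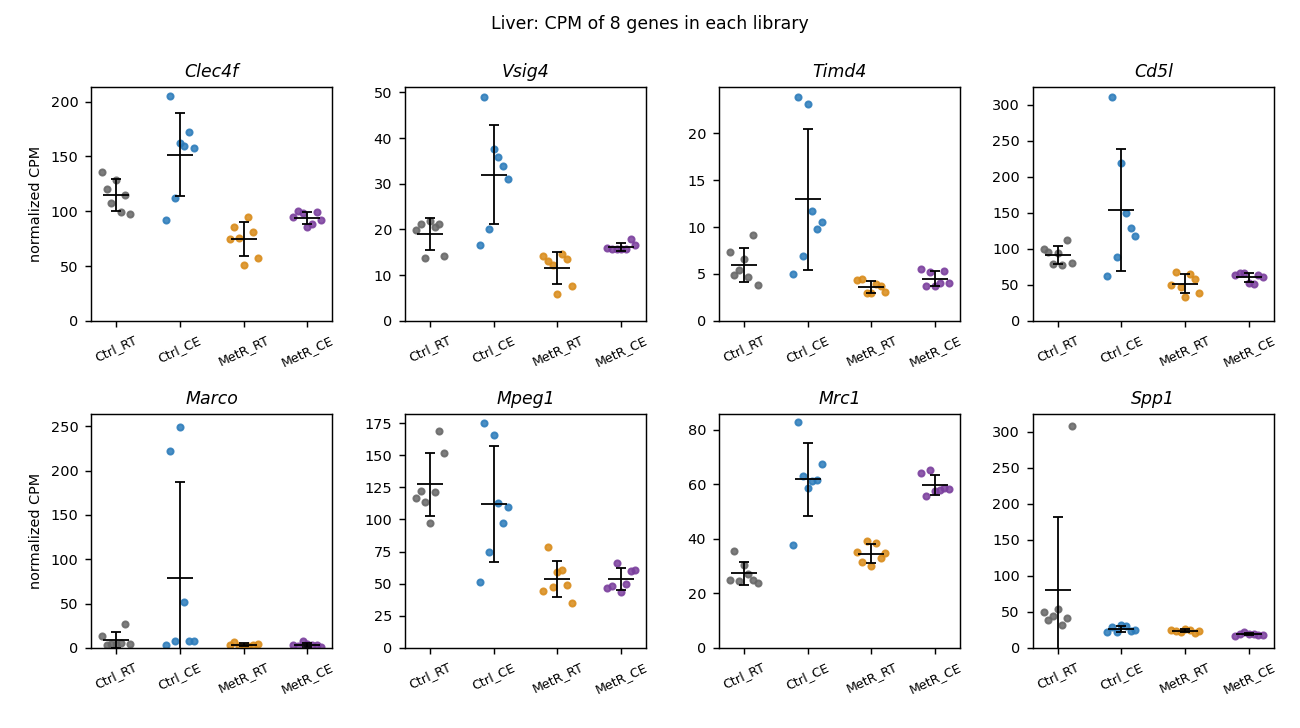
Values of selected genes in each liver library as CPM, by group (n = 7 each), with a bar for the mean and an error bar for the SD whose lower end is cut at 0. Marco in Ctrl_CE reached 222.6 and 249.5 CPM in replicates 2 and 4, while Mrc1 was higher in all Ctrl_CE and MetR_CE livers than in any Ctrl_RT liver.

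Resident fat macrophage genes in liver had 3, 0 and 1 higher in Ctrl_CE, MetR_RT and MetR_CE. Mrc1, also made by the endothelium of the liver sinusoids, ran from 23.9 to 35.5 CPM (median 24.9) in Ctrl_RT, 37.8 to 82.6 (median 61.5) in Ctrl_CE, 30.1 to 39.1 (median 34.6) in MetR_RT and 55.8 to 65.3 (median 58.2) in MetR_CE. Every cold liver, on either diet, was above every Ctrl_RT liver. Its log2 fold changes were 1.18 (SE 0.11, adjusted p = 4.17e-09), 0.34 (SE 0.11, adjusted p = 0.0252, not called) and 1.13 (SE 0.11, adjusted p = 2.97e-09), and the first was 1.10 without the 2 livers. Endothelial genes moved with it: 6 of 7 were higher in Ctrl_CE, 2 in MetR_RT and 6 in MetR_CE, with 6 again in Ctrl_CE without the 2 livers, and their summed level was 129 to 174 CPM in Ctrl_RT, 203 to 348 in Ctrl_CE, 166 to 213 in MetR_RT, against 270.5 to 307 in MetR_CE. Their part in the Mrc1 result was not tested. Cd163 ran from 11.3 to 27.6 CPM (median 17) in Ctrl_RT and 19 to 72.7 (median 40.5) in Ctrl_CE, at 1.28 (SE 0.24, adjusted p = 0.000139), and 0.91 (adjusted p = 0.00228) without the 2 livers. Folr2 averaged 2.21 and 3.89 CPM, at 0.80 (SE 0.28, adjusted p = 0.0324), and was no longer called without them (log2 0.62, adjusted p = 0.133). Leaving out Ctrl_RT replicate 3 or 7, or Ctrl_CE replicate 2, 5 or 7, also ended its call.

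Among the core and surface genes of liver, 6 of 9 and 3 of 3 were higher in Ctrl_CE. Adgre1 ran from 13.8 to 17.4 CPM (median 14.6) in Ctrl_RT and 12.5 to 110 (median 29.1) in Ctrl_CE, at 1.66 (SE 0.31, adjusted p = 0.000116), and 0.83 (adjusted p = 0.00168) without the 2 livers. Csf1r, the receptor for the macrophage growth factors, ran from 42.9 to 63.8 (median 55) and 51.2 to 179 CPM (median 116), at 1.09 (SE 0.18, adjusted p = 2.44e-05) and 0.83 (adjusted p = 0.0003) without them. Both genes kept the call on the smaller set of livers, with Ctrl_CE values that still overlapped Ctrl_RT. Cd14, a receptor for bacterial lipopolysaccharide, had 1.28 (SE 0.45, adjusted p = 0.032), and turned to −0.12 without the 2 livers. Ms4a7 had 1.23 (SE 0.45, adjusted p = 0.0395) and Itgam 1.09 (SE 0.40, adjusted p = 0.0412), and they had 0.65 and 0.13 without them. The calls of Cd14, Ms4a7 and Itgam each ended in at least 6 fits that left out 1 library. Lyz2, Ctss, C1qc, Spi1, Tyrobp and Ptprc completed the 18 and were not called without the 2 livers, at log2 fold changes of 0.17, 0.15, 0.21, 0.32, 0.11 and 0.37.

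On the restricted diet, 5 of the 6 Fc receptor and adaptor genes of liver were lower in MetR_RT and 3 in MetR_CE. Clec4n fell by 1.13 (SE 0.32, adjusted p = 0.0116) in MetR_RT. Fcgr1 ran from 3.35 to 4.82 CPM (median 4.09) in Ctrl_RT, 1.56 to 3.30 (median 2.12) in MetR_RT and 1.69 to 2.82 (median 2.01) in MetR_CE, with no overlap between Ctrl_RT and either diet group. It fell by 1.0 (SE 0.22, adjusted p = 0.00133) and 0.94 (SE 0.22, adjusted p = 0.00136), and was at 0.12 in Ctrl_CE. Fcgr3, another activating IgG receptor, fell by 0.98 (SE 0.21, adjusted p = 0.000874) in MetR_RT, and Fcgr4 fell by 0.94 (SE 0.25, adjusted p = 0.00772) and 0.78 (SE 0.25, adjusted p = 0.0179). Mpeg1 was the largest decline of the core group. It ran from 97.4 to 169 CPM (median 121) in Ctrl_RT, 35.1 to 78.5 (median 49.3) in MetR_RT and 43.9 to 65.7 (median 50.1) in MetR_CE, and its log2 fold change was −1.25 in both (SE 0.20, adjusted p = 2.42e-05 and 8.86e-06). In MetR_CE Aif1, a calcium-binding protein of macrophages, fell by 0.70 (SE 0.23, adjusted p = 0.0186) and the adaptor gene Fcer1g by 0.69 (SE 0.25, adjusted p = 0.0362), the latter lost in 10 fits that left out 1 library. C1qb fell by 0.89 (SE 0.19, adjusted p = 0.00087) in MetR_RT and 0.60 (SE 0.19, adjusted p = 0.0135) in MetR_CE, and C1qa by 0.59 (SE 0.16, adjusted p = 0.00573) in MetR_CE, values next to the fold threshold that fell short of it in several such fits.

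Spp1 was the only lipid-associated gene called in liver and was lower in all 3 groups. It ran from 31.8 to 308 CPM (median 44.5) in Ctrl_RT, 22.5 to 32 (median 25) in Ctrl_CE, 20.7 to 26.9 (median 24) in MetR_RT and 16.9 to 21.5 (median 18.7) in MetR_CE. Both diet groups lay below every Ctrl_RT liver. The log2 fold changes of −1.62 (SE 0.34, adjusted p = 0.000436), −1.78 (SE 0.34, adjusted p = 0.000282) and −2.10 (SE 0.34, adjusted p = 1.76e-05) became −0.70, −0.88 and −1.19 without Ctrl_RT replicate 7, the library at 308 CPM, and remained called. Spp1 is also made by bile duct epithelium, and the epithelial marker list had 2, 2 and 3 of its 6 tested genes lower in liver, with summed levels of 467 to 857 CPM in Ctrl_RT, 349 to 471 in Ctrl_CE, 453 to 616 in MetR_RT, against 318 to 453 in MetR_CE. The part of epithelium in the Spp1 result was not tested. Trem2 averaged 1.32, 1.03, 0.776 and 0.658 CPM, Gpnmb 0.260, 0.445, 0.245 and 0.389, Lgals3 3.88, 5.59, 2.35 and 2.78, and Itgax 0.849, 0.754, 0.818 and 0.660, and none of these 4 was called.

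Of 5 further Kupffer cell genes, 2 were higher and 1 lower in Ctrl_CE, 2 lower in MetR_RT and 1 lower in MetR_CE. Kcna2 and Fcna rose by 0.81 (SE 0.29) and 0.70 (SE 0.13) in Ctrl_CE, and neither was called without the 2 livers, at 0.44 and 0.58. C6, a terminal complement component that hepatocytes also make, fell by 1.06 (SE 0.19), 2.45 (SE 0.20) and 2.88 (SE 0.20). Among 8 genes for CSF1R ligands and transcription factors, Spic (1.67, SE 0.50) and Zeb2 (0.96, SE 0.13), both transcription factors, rose in Ctrl_CE, 2 genes fell in MetR_RT, of which Csf1 fell by 0.71 (SE 0.24), and 0 were called in MetR_CE. Without the 2 livers Zeb2 was still called (log2 0.80) and Spic was not (log2 0.18, adjusted p = 0.694). The other resident list of 8 had 1 higher and 1 lower in Ctrl_CE and again in MetR_CE. Its higher gene was Lyve1, a hyaluronan receptor also of endothelium, by 0.88 (SE 0.28) and 0.80 (SE 0.28), and the first was not called without the 2 livers (log2 0.54). The other lipid-associated list of 8 had 0, 1 and 2 lower, among them Fabp5 with a fall of 2.84 (SE 0.35) in MetR_RT and 3.17 (SE 0.36) in MetR_CE. It had 1 higher, Atp6v0d2, which rose by 1.05 (SE 0.32, adjusted p = 0.0121) in MetR_CE. Of 8 monocyte genes 1 was higher in Ctrl_CE, 1 higher and 1 lower in MetR_RT and 3 lower in MetR_CE, and in Ctrl_CE without the 2 livers 0 were higher and 1 lower. Of 7 neutrophil genes tested 1 was higher in Ctrl_CE and 1 lower in each of the others, whereas without the 2 livers 3, 6 and 6 were lower and 0 higher. Fibroblast and stellate cell genes were higher in 4, 1 and 3 of 6, with 1 lower in MetR_CE, and hepatocyte genes lower in 2, 1 and 2 of 5. Both lists, and that of T and NK cell genes, had the same counts in Ctrl_CE without the 2 livers. Of 6 proliferation genes, 0, 0 and 3 were lower, with Mki67 down by 1.91 (SE 0.50), Top2a by 1.84 (SE 0.51) and Cdk1 by 1.55 (SE 0.44) in MetR_CE. T and NK cell genes were higher in 2, 0 and 1 of 8, with the NK cell receptor gene Klrb1c up by 2.30 (SE 0.63) in Ctrl_CE and 2.21 (SE 0.65) in MetR_CE, and the T cell gene Cd3e up by 1.24 (SE 0.41) in Ctrl_CE. Dendritic cell genes were higher in 1, 0 and 0 of 7, and B cell genes were called in 0 of 8 each time.

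In iBAT, macrophage genes were sparse. Some were called lower under diet alone, and most were called lower when diet and cold were combined. Ctrl_CE had 2 of 33 genes higher and 2 lower, MetR_RT 0 higher and 11 lower, and MetR_CE 1 higher and 26 lower. Of all genes tested in iBAT, 4.97%, 0.535% and 4.36% were called higher, and 9.72%, 1.97% and 10.3% lower. The median log2 fold change was −0.17, −0.65 and −1.09, beside −0.08, −0.04 and −0.10 over all genes. It was −1.05 in MetR_CE where genes at 0 counts were set by a floor of 3 counts. The summed level of the members was 176 ± 39.7, 166 ± 60.6, 110 ± 25.2 and 87.9 ± 17.8 CPM in Ctrl_RT, Ctrl_CE, MetR_RT and MetR_CE.

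Lgals3 was the exception that rose with cold in iBAT. It ran from 3.14 to 8.33 CPM (median 4.27) in Ctrl_RT and from 8.79 to 29.9 (median 14) in Ctrl_CE, without overlap, and averaged 4.57 in MetR_RT and 8.76 ± 3.39 in MetR_CE. The log2 fold changes were 1.70 (SE 0.29, adjusted p = 2.49e-05), −0.08 and 0.87 (SE 0.28, adjusted p = 0.0177), the last lost without MetR_CE replicate 2 (log2 0.73, adjusted p = 0.051). Clec4n, the other gene higher in Ctrl_CE, rested on 41 counts in Ctrl_CE against 15 in Ctrl_RT (log2 1.51, SE 0.50, adjusted p = 0.0192) and was lost without Ctrl_CE replicate 2 (log2 1.05, adjusted p = 0.12). Cd14 ran from 3.44 to 7.00 CPM (median 4.41) in Ctrl_RT, 1.96 to 4.26 (median 2.36) in Ctrl_CE, 1.70 to 3.99 (median 2.63) in MetR_RT and 0.557 to 2.66 (median 1.82) in MetR_CE, where no library reached the Ctrl_RT range. It fell by 0.91 (SE 0.24, adjusted p = 0.00403), 0.95 (SE 0.24, adjusted p = 0.0128) and 1.55 (SE 0.24, adjusted p = 8.43e-06). Without the iBAT of the 2 mice whose livers stood apart, 8 genes rather than 4 were called in Ctrl_CE, 1 higher and 7 lower. Those 2 libraries had the highest core gene sums of their group, 117 and 112 CPM against 44.6 to 75.5.

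All 3 resident fat macrophage genes of iBAT were lower in MetR_CE. Mrc1 ran from 8.29 to 21.5 CPM (median 11.9) in Ctrl_RT, 8.12 to 14.5 (median 11.4) in Ctrl_CE, 4.50 to 9.56 (median 6.99) in MetR_RT and 3.90 to 6.62 (median 5.09) in MetR_CE. The cold group on the control diet overlapped the Ctrl_RT range widely, and all MetR_CE libraries lay below it. The log2 fold changes were −0.20, −0.89 (SE 0.19, adjusted p = 0.00344) and −1.31 (SE 0.19, adjusted p = 2.81e-06). Cd163 averaged 9.65, 6.87, 6.19 and 4.98 CPM, with −0.64 (SE 0.20, adjusted p = 0.0442) in MetR_RT and −0.94 (SE 0.20, adjusted p = 0.000392) in MetR_CE. Folr2 averaged 0.978, 0.507, 0.557 and 0.375 CPM, with −0.98 (SE 0.37, adjusted p = 0.0419) in Ctrl_CE and −1.34 (SE 0.37, adjusted p = 0.00556) in MetR_CE. Ctrl_RT replicate 5 was the highest Ctrl_RT library in several groups of genes, and without it the MetR_RT value of Cd163 was −0.42 and the Ctrl_CE value of Folr2 −0.66, neither called. Both calls also ended in other fits that left out 1 library.

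In the core and C1q groups of iBAT, 2 and 3 genes were lower in MetR_RT and 8 and 3 in MetR_CE. Spi1, the PU.1 gene, ran from 2.06 to 3.34 CPM (median 2.31) in Ctrl_RT, 0.932 to 2.10 (median 1.20) in MetR_RT and 0.796 to 1.55 (median 1.05) in MetR_CE. The groups touched in MetR_RT and were apart in MetR_CE. It fell by 0.86 (SE 0.21, adjusted p = 0.01) and 1.20 (SE 0.21, adjusted p = 4.31e-05). C1qc fell by 0.87 (SE 0.20, adjusted p = 0.0058) and C1qa by 0.83 (SE 0.19, adjusted p = 0.00716) in MetR_RT, and by 1.0 and 1.11 in MetR_CE. Lyz2 fell by 0.79 (SE 0.22) and 1.33 (SE 0.23, adjusted p = 2.75e-05), the first lost without Ctrl_RT replicate 4 or 5 or MetR_RT replicate 3, 4, 5 or 7. Itgam fell by 1.17 (SE 0.33, adjusted p = 0.0271) and 1.71 (SE 0.34, adjusted p = 0.000229), the first lost without Ctrl_RT replicate 5 (log2 −0.98, adjusted p = 0.079) or MetR_RT replicate 2, 3, 5 or 7. Fcgr1 fell by 1.24 (SE 0.29, adjusted p = 0.00101) in MetR_CE. The Fc receptor group had 1 higher in Ctrl_CE, 1 lower in MetR_RT and 4 lower in MetR_CE.

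Of the lipid-associated genes in iBAT, 1 was lower in MetR_RT, and 3 were lower and 1 higher in MetR_CE. Gpnmb averaged 3.44, 2.56, 1.22 and 1.85 CPM, with −1.49 (SE 0.35, adjusted p = 0.00807) in MetR_RT and −0.88 (SE 0.34, adjusted p = 0.0422) in MetR_CE, the latter lost without Ctrl_RT replicate 5 (log2 −0.49, adjusted p = 0.25). Trem2 averaged 0.709, 0.464, 0.393 and 0.367 CPM and fell by 0.95 (SE 0.28, adjusted p = 0.00903) in MetR_CE. Itgax averaged 0.497, 0.506, 0.412 and 0.195 CPM and fell by 1.39 (SE 0.52, adjusted p = 0.0375) in MetR_CE, lost without Ctrl_RT replicate 5 (log2 −1.05, adjusted p = 0.14). Spp1 had 89, 42, 10 and 32 counts per group in all and was not called. The Kupffer cell genes were at the limit of detection in iBAT. Vsig4 had 7, 4, 2 and 0 counts per group, Cd5l 10, 2, 2 and 0, Marco 3, 13, 8 and 0, and Timd4 30, 45, 26 and 15. With a floor of 3 counts for the MetR_CE group, the pooled counts put Vsig4 2.20-fold lower and Cd5l 3.14-fold lower there. No fold is given for Marco. The few Ctrl_RT counts are taken as exact, so these values are not strict lower bounds. The Cd5l value rests mostly on 1 Ctrl_RT library, at 0.149 CPM per kb beside a group median of 0.0109. For both genes the lowest Ctrl_RT library was at 0, so the groups overlapped. The Vsig4 call in MetR_CE ended without Ctrl_RT replicate 2 or 5 or MetR_CE replicate 1 or 3.

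Among related lists in iBAT, the other resident fat macrophage genes were lower in 2, 4 and 6 of 8, with F13a1 down by 1.32 (SE 0.20) in MetR_RT and 1.51 (SE 0.20) in MetR_CE. Monocyte genes were lower in 1, 1 and 7 of 8, and neutrophil genes in 0, 0 and 4 of 6. Il34, a ligand of CSF1R, fell by 0.78 (SE 0.16), 0.74 (SE 0.15) and 0.88 (SE 0.15), and its list of 8 had 1, 2 and 3 lower. The other lipid-associated genes had 1 of 8 higher in Ctrl_CE, 1 higher and 2 lower in MetR_RT and 2 higher in MetR_CE, among them Lipa, the lysosomal acid lipase, by 0.88 (SE 0.10) and 0.81 (SE 0.10) in the cold groups. The other Kupffer cell list had 1, 3 and 3 of 5 lower. Fibroblast genes were lower in 1, 3 and 3 of 6, and endothelial genes in 0 of 7 each time, with 0 higher. Hepatocyte genes were lower in 4 of 5 in each comparison, with Alb (albumin) down by 4.05 (SE 1.14), 4.35 (SE 1.13) and 4.08 (SE 1.09). Their sum was 49.7 CPM in Ctrl_RT replicate 5, the library that was also highest in several groups of macrophage genes, and 0.258 to 4.04 in the other 5 Ctrl_RT libraries, 0 to 3.12 in Ctrl_CE, 0.224 to 1.34 in MetR_RT and 0.0456 to 2.49 in MetR_CE. Without that library 4, 7 and 21 members were called in Ctrl_CE, MetR_RT and MetR_CE, against 4, 11 and 27 with it. Muscle gene sums ran from 0.156 to 1629 CPM in Ctrl_RT and from 0.716 to 543 in MetR_CE.

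In eWAT, 0 of the 34 genes were called in Ctrl_CE, MetR_RT or MetR_CE by edgeR's quasi-likelihood test. Of all genes tested there, 2.42%, 0.115% and 1.30% were called. At an unadjusted p under 0.05, the same test gave 1, 5 and 7 of the 34. The share of all tested genes at that p was not counted, so these numbers have no baseline. DESeq2 called 0, 0 and 2 without shrinkage and 0, 0 and 1 with apeglm. The median log2 fold change of the members was 0.31, −0.37 and −0.23, beside −0.01, −0.02 and −0.03 over all genes. The 34 genes summed to 1139 ± 162 CPM in Ctrl_RT (n = 4), 1268 ± 457 in Ctrl_CE (n = 7), 912 ± 157 in MetR_RT (n = 6) and 968 ± 192 in MetR_CE (n = 7).

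The genes of eWAT nearest to a call were Cd14 and Folr2 in MetR_CE. Cd14 was at 25.4, 22.1, 20.1 and 19.3 CPM in Ctrl_RT replicates 1, 3, 6 and 7, 9.72 to 34.8 (median 13) in Ctrl_CE, 9.73 to 19.1 (median 14.1) in MetR_RT and 9.60 to 15.5 (median 12.2) in MetR_CE. Both MetR groups lay below the 4 Ctrl_RT libraries. Its log2 fold change in MetR_CE was −0.81 (SE 0.25, adjusted p = 0.0876). The left-out Ctrl_RT replicates 2, 4 and 5 had 12.3, 21 and 8.33 CPM, which reach into the MetR range. Folr2 averaged 8.75, 8.07, 6.23 and 5.07 CPM, with −0.78 (SE 0.25, adjusted p = 0.099) in MetR_CE. C1qa was at 82, 107, 75.5 and 97 CPM in Ctrl_RT, 46.8 to 74.7 (median 61.6) in MetR_RT and 51.6 to 75.6 (median 57.3) in MetR_CE, with −0.54 (SE 0.22, adjusted p = 0.417) and −0.52 (SE 0.21, adjusted p = 0.218). Itgax leaned the other way. It was at 4.39, 3.93, 4.51 and 4.93 CPM in Ctrl_RT and 5.15 to 11 (median 7.37) in MetR_CE, with 0.74 (SE 0.29, adjusted p = 0.195).

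The remaining named members of eWAT had wide spreads. Trem2 averaged 5.73, 7.30, 3.68 and 3.61 CPM, Gpnmb 22.2, 29.7, 21.4 and 27.9, Spp1 2.47, 4.24, 0.582 and 2.39, and Lgals3 84.9, 112, 93.1 and 119, in the order Ctrl_RT, Ctrl_CE, MetR_RT and MetR_CE. Mrc1 averaged 75.8, 95.3, 62.4 and 57.1 CPM, and Cd163 56.3, 56.3, 51.4 and 48.9. Among the Kupffer cell genes, Vsig4 averaged 1.54, 1.53, 0.841 and 0.816 CPM, Timd4 3.30, 2.23, 2.55 and 2.19, Cd5l 2.49, 2.66, 1.41 and 1.51, and Marco 1.25, 2.35, 1.52 and 1.31. Clec4f stood at or near 0. Of the related lists, those for monocytes, resident fat macrophages, other lipid-associated macrophages, neutrophils, dendritic cells and proliferation had 0 genes called in eWAT by edgeR's test. At most 4 of a list had an unadjusted p under 0.05, and here too the share of all genes was not counted. Irf8, a transcription factor of monocytes and dendritic cells, rose by 0.86 in Ctrl_CE (SE 0.20, adjusted p = 0.015), and C6 fell by 1.68 (SE 0.25) in MetR_RT and 2.55 (SE 0.24) in MetR_CE. The epithelial marker sum, which can mark attached epididymis, ran from 4.42 to 344 CPM in Ctrl_RT and from 2.05 to 272.4 in MetR_CE, and its part in these values was not tested.

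**Figure D4:**
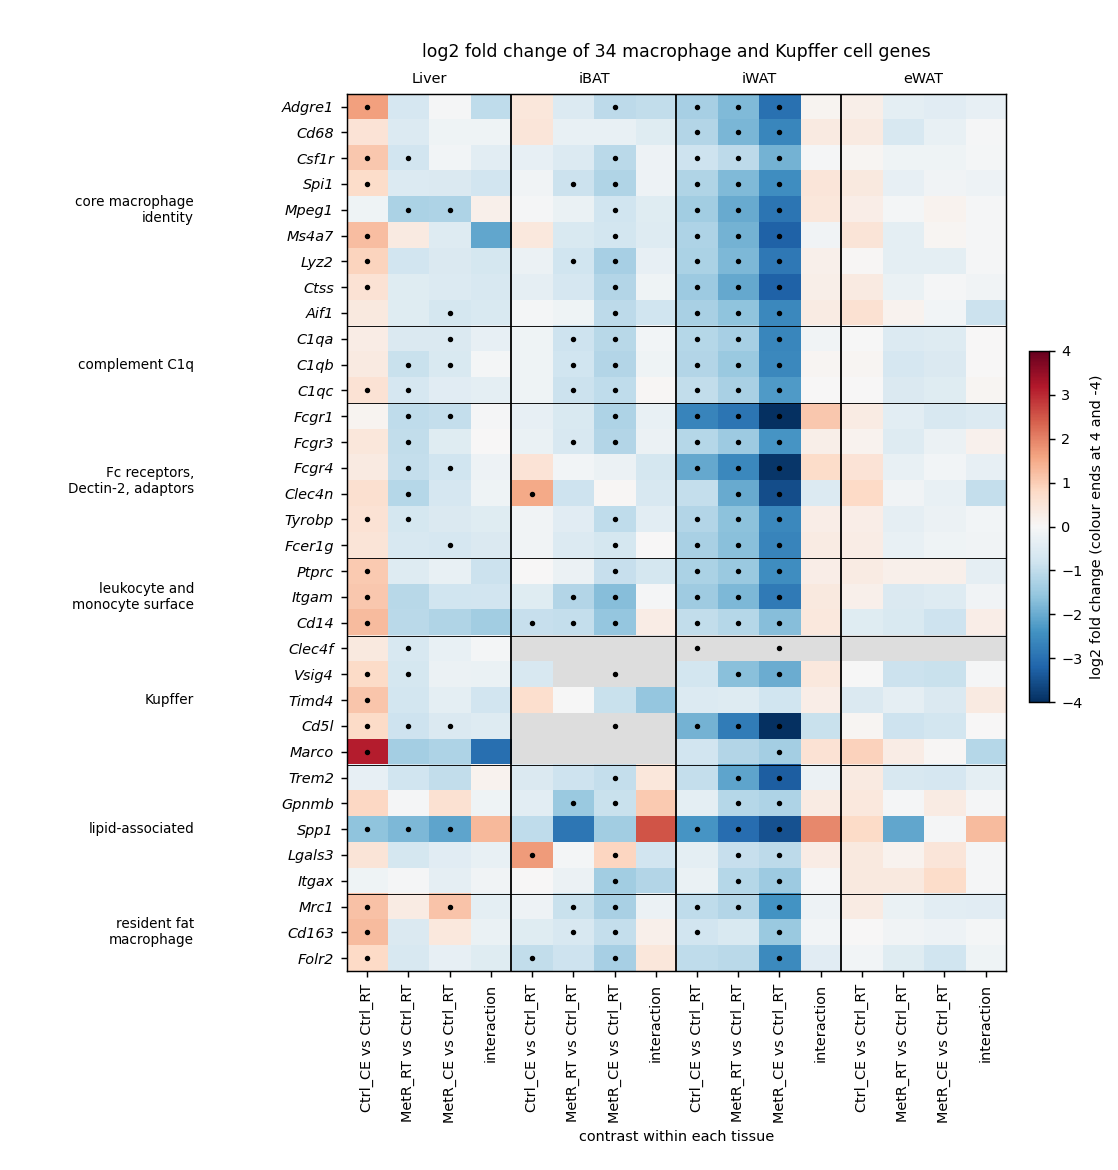
Log2 fold change of each of the 34 genes against Ctrl_RT in Ctrl_CE, MetR_RT and MetR_CE of the 4 tissues, by colour. The last column of each tissue is the interaction of diet and cold on the log2 scale, and a dot stands where a gene was called. Grey marks a gene that was not tested or a compared group with 3 counts or fewer in all; 29 of the 34 genes carry the call in MetR_RT of iWAT, and the eWAT columns hold no dot.

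Whether cold and diet changed these genes by different amounts in different tissues was tested directly, in 1 model over all libraries. For cold on the control diet, the log2 fold change in iWAT was lower than in eWAT for 19 of the 34 genes and higher for 0, beside 2.71% of all tested genes lower. Spp1 differed by −3.11 (SE 0.97, adjusted p = 0.034), Fcgr1 by −2.97 (SE 0.52, adjusted p = 7.4e-05) and Fcgr4 by −2.59 (SE 0.57, adjusted p = 0.0015). The log2 fold change was higher in liver than in iWAT for 28 genes and lower for 0, beside 8.10% of all tested genes higher. Marco differed by 3.90 (SE 0.88, adjusted p = 0.00033) and Adgre1 by 3.01 (SE 0.42, adjusted p = 2e-08). Without the 2 Ctrl_CE livers, 23 genes were called higher and 0 lower, Marco was at 1.62 (adjusted p = 0.151) and not called, and Adgre1 was at 2.21 (adjusted p = 7.8e-06). Clec4n, Timd4, Cd14 and Mpeg1 also lost the call. For diet at room temperature, the log2 fold change was lower in iWAT than in eWAT for 10 genes and higher for 0. Of all tested genes, 1.81% were lower. Fcgr1 differed by −2.48 (SE 0.52, adjusted p = 0.001), Fcgr4 by −2.25 (SE 0.59, adjusted p = 0.0096) and Mpeg1 by −1.93 (SE 0.43, adjusted p = 0.0022). With the mouse as a block, as each mouse gave several tissues, 16 genes were called in this comparison, and 16 with all libraries kept. The shares over all genes given here are those of the main fit alone. In the diet response, the log2 fold change was higher in liver than in iWAT for 10 genes and lower for 0. Of all tested genes, 4.12% were higher. The fold change was negative in 32 of the 34 genes in liver and 33 in iWAT, so higher mostly means a smaller fall in liver. Ms4a7 differed by 2.25 (SE 0.59, adjusted p = 0.0041), Cd5l by 2.0 (SE 0.61, adjusted p = 0.016) and Mrc1 by 1.54 (SE 0.33, adjusted p = 0.00031).

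For diet and cold together, the log2 fold change was lower in iWAT than in eWAT for 28 genes and higher for 0, beside 6.39% of all tested genes lower. Cd5l differed by −4.84 (SE 0.89, adjusted p = 1.7e-05) and Fcgr1 by −3.81 (SE 0.55, adjusted p = 5.4e-08). It was higher in liver than in iWAT for 26 genes, beside 7.82% of all tested genes higher. The fold change was negative in 31 of the 34 genes in liver and 33 in iWAT, so higher mostly means a smaller fall in liver. Cd5l differed by 5.0 (SE 0.76, adjusted p = 1.3e-07), Fcgr1 by 3.53 (SE 0.51, adjusted p = 2.3e-08) and Mrc1, which rose in liver, by 3.51 (SE 0.35, adjusted p = 6.4e-14). The 1 gene below was Clec4f, with iWAT counts at the floor.

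Within a tissue, the interaction of diet and cold asks if their joint change differed from the sum of the 2 single changes on the log2 scale. None of the members was called for it in liver, iBAT, iWAT or eWAT by edgeR's quasi-likelihood test, and 0 were called by DESeq2 with or without shrinkage. At an unadjusted p under 0.05 the counts were 9, 4, 1 and 1, with no count over all tested genes to set beside them. Of all tested genes, 1.06%, 0.372%, 1.65% and 2.30% were called in the 4 tissues. In iWAT the interaction of Adgre1, Ctss, Fcgr1 and the other members was thus not resolved from 0, with standard errors such as 0.56 for Ctss (log2 0.25) and 0.63 for Fcgr4 (log2 0.74).

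**Figure D5:**
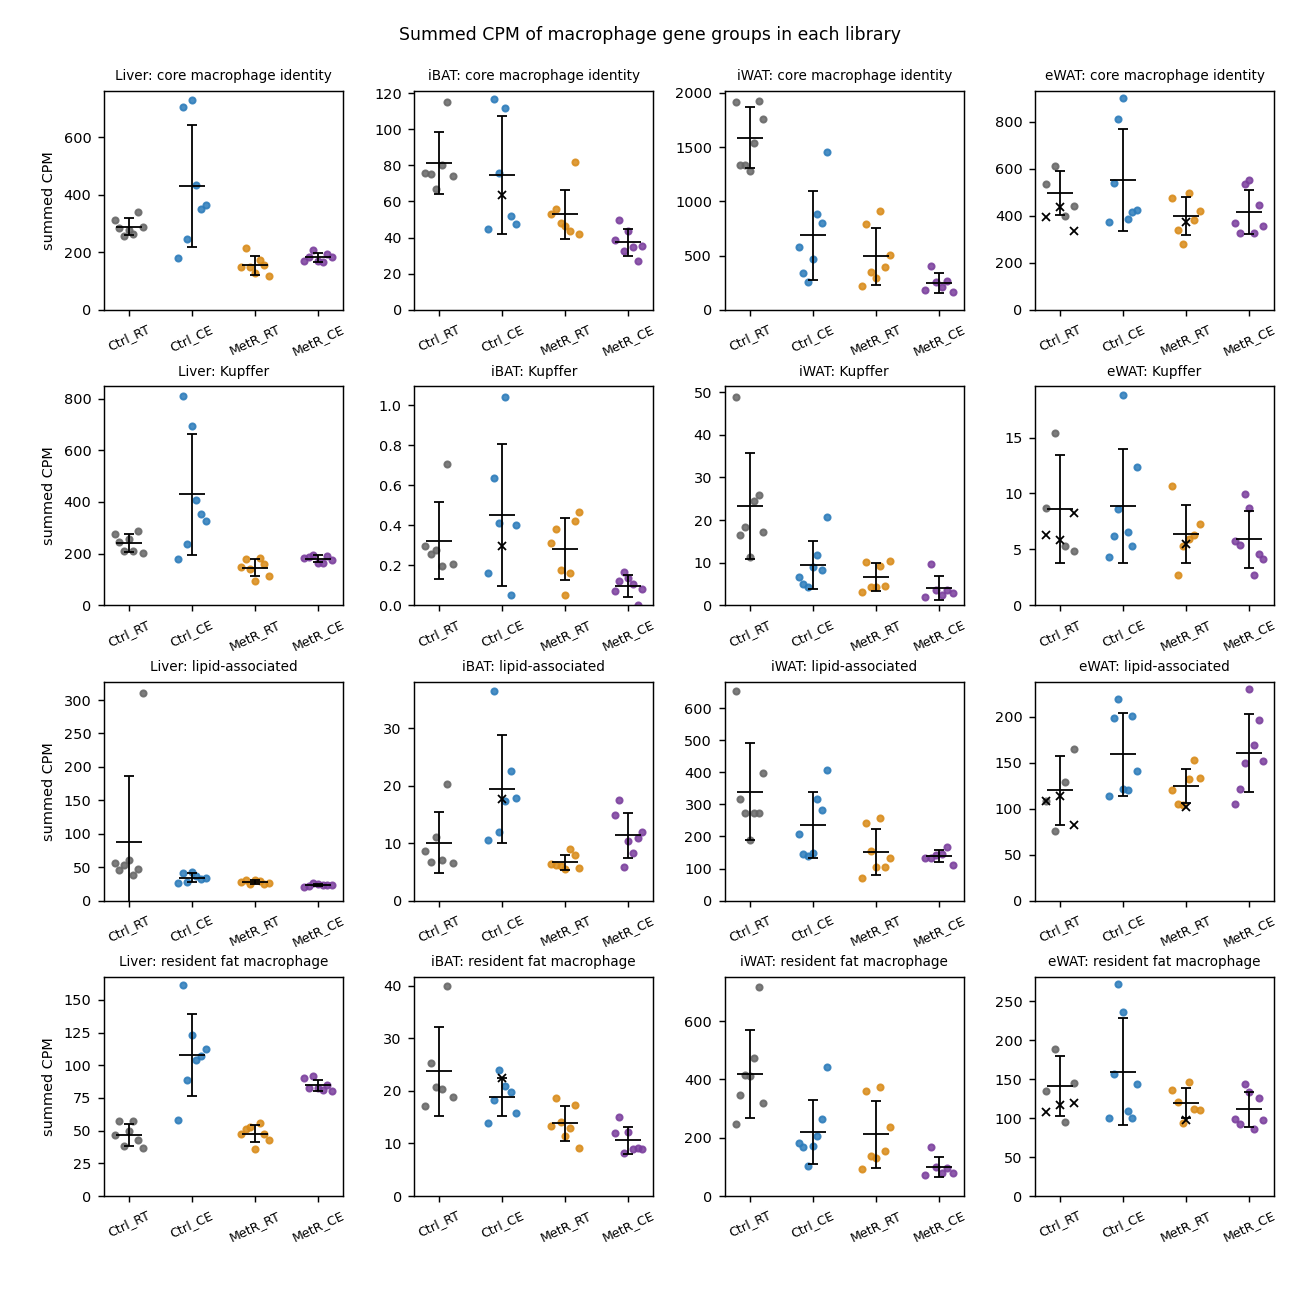
Summed CPM of 4 of the gene groups (rows of panels) in each library of the 4 tissues, by group, with crosses for libraries left out of the fits. The Kupffer cell sum of Ctrl_CE liver replicates 2 and 4, at 811 and 692 CPM, stands above the 179 to 409 CPM of the other 5, and in iWAT all groups of genes are lowest on average in MetR_CE.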

How the data were processed

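PolyA RNA from liver, iBAT, iWAT and eWAT was sequenced. The authors deposited gene-level counts in separate sets for liver, for iBAT with iWAT, and for eWAT. Their sources name STAR 2.7.9a with featureCounts 2.0.3 and Salmon 1.9.0, and the build as mm10. Rows were paired with symbols through the reference tables (51948 of 56884). The values used are the deposited counts as whole numbers, not normalized.

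Each tissue was fitted separately with edgeR 4.0.16 in R 4.3.3 (TMM, quasi-likelihood test, 4 group means) on genes with at least 10 counts in all. A further model covered all tissues. Adjusted p values are Benjamini-Hochberg. CPM used TMM-scaled library sizes. The adapted fits were tested on simulated data. Other runs used DESeq2 1.42.0, plain or with shrinkage by apeglm 1.24.0, other filters and scalings, a replicate block, and leaving out each library. The fits without the libraries named above as standing apart, and those leaving out each library of liver, iBAT and iWAT in turn, were chosen after seeing the data.

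In all, 5 libraries were left out after the study's exclusions, whose identity was traced from group mean counts: iBAT Ctrl_CE replicate 5, eWAT Ctrl_RT replicates 2, 4 and 5, and eWAT MetR_RT replicate 7. Each mouse gave several tissues, so the joint model was also fitted with the mouse as a block. Same-mouse correlations between tissues had a median of 0.0372 over 148 pairs, against −0.00167 over 3982 others. The mice were single-housed during the experiment, and the labels do not give their earlier cages or litters. The p-values measure the spread between these mice.

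The members and lists were chosen with earlier results of these data known. Values are given for the Kupffer, lipid-associated and resident fat macrophage genes in each tissue, for the 5 other called members with the largest change per comparison, and for up to 3 called genes of each related list. Some genes of these lists are not reported here.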

Additional observations from a re-analysis of the deposited data

Results flagged for a closer look

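Summed CPM was compared between libraries within a group for the 7 gene groups in 4 tissues, 112 sets in all, and in 13 of them 1 library lay far from the others by Dixon's test at 95%. Chance gives about 1 such set in 20. Ctrl_RT replicate 5 of iBAT was high in 5 groups of genes. It had 115 CPM of core genes (others 66.8 to 80.3), 58.7 of C1q genes (34.2 to 40), 0.707 of Kupffer cell genes (0.195 to 0.293), 20.3 of lipid-associated genes (6.46 to 11) and 40.0095 of resident fat macrophage genes (17.2 to 25.3). MetR_RT replicate 6 of iBAT had 81.7 CPM of core genes (42.1 to 56.0) and 11.8 of leukocyte surface genes (4.81 to 6.80).

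In iWAT, Ctrl_RT replicate 6 had 1216 CPM of C1q genes (others 610 to 820), Ctrl_RT replicate 1 had 48.99 of Kupffer cell genes (11.4 to 25.9), and MetR_CE replicate 2 had 9.59 of Kupffer cell genes (2.04 to 3.57) and 169 of resident fat macrophage genes (73.3 to 101). By the sample labels, Ctrl_RT replicate 6 of iWAT and Ctrl_RT replicate 5 of iBAT came from the same mouse. In liver, MetR_RT replicate 2 had 13.9 CPM of leukocyte surface genes (5.36 to 8.16), and Ctrl_RT replicate 7 had 311 of lipid-associated genes (37.7 to 60.5), which Spp1 alone made up at 308 CPM. The cause of these values was not tested.

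Responses that differed between tissues by a test of the difference were 19 members for Ctrl_CE and 10 for MetR_RT between iWAT and eWAT, 28 for MetR_CE, and 28, 10 and 27 for Ctrl_CE, MetR_RT and MetR_CE between liver and iWAT.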

How the results depend on the processing

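Of 378 called results for single members, 322 kept the call in each alternative run and 3 turned sign. Without the 2 Ctrl_CE livers, 5 members were called in Ctrl_CE (19 otherwise) and 20 in MetR_RT (13 otherwise), and Cd14 in Ctrl_CE turned to −0.12. Without the iBAT of the same mice, 8 were called in Ctrl_CE of iBAT (4 otherwise). In MetR_CE of eWAT (0 otherwise), DESeq2 called 2 without shrinkage and 1 with apeglm, the replicate block 1 and all libraries 2. The difference of MetR_RT between iWAT and eWAT (10 otherwise) had 16 with the mouse block and 16 with all libraries. With all libraries Aif1 turned to −0.020 in the Ctrl_RT level of iWAT against eWAT and to 0.22 in the difference of Ctrl_CE between them (−1.90 otherwise). Keeping all libraries also shifted the median log2 fold change over all eWAT genes by −0.196, −0.107 and −0.149 in Ctrl_CE, MetR_RT and MetR_CE. The cause of these changes was not tested, and the share of all genes called was counted in the main fits only.

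Leaving out 1 library at a time gave 10 to 22, 12 to 18 and 6 to 13 calls in Ctrl_CE, MetR_RT and MetR_CE of liver, 2 to 5, 7 to 13 and 21 to 27 in iBAT, and 21 to 27, 27 to 30 and 31 to 34 in iWAT, with 0 to 0 in eWAT and for the interactions. The lowest counts came without Ctrl_CE replicate 2 in liver (10) and in iBAT (2), without Ctrl_RT replicate 1, 2 or 4 or MetR_CE replicate 1 or 5 in MetR_CE of liver (6), and without Ctrl_RT replicate 5 or MetR_RT replicate 3, 5 or 7 in MetR_RT of iBAT (7).

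Replicate numbers did not pair mice within a tissue. Same-numbered libraries of different groups had correlations of −0.339 to 0.226 in liver, −0.333 to 0.407 in iBAT, −0.505 to 0.651 in iWAT and −0.601 to 0.521 in eWAT, and 0 of 28, 7 of 26, 3 of 27 and 2 of 24 libraries correlated best with their own number. With a replicate block, 13 members were called in Ctrl_CE and 14 in MetR_RT of liver. Genes with few counts, such as Clec4f in fat, are limited by depth.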
